A study of Mus musculus with 28 samples.

Results

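Corticosterone (Cort), the natural glucocorticoid of the mouse, was compared with vehicle for its effect on acetylation of lysine 27 of histone H3 (H3K27ac) in bone marrow-derived macrophages. The comparison used 6 of the 28 libraries of the series, 3 with Cort and 3 with vehicle, and all 63313 regions (peaks) for which H3K27ac reads had been counted, of 71707 regions in the H3K27ac and glucocorticoid receptor (GR) sets together. The libraries were chosen by their treatment label, and the replicate numbers 1 to 3 were used to pair a Cort library with a vehicle library. Bone marrow came from male C57BL/6 animals, 8 to 10 weeks of age, and had been grown into macrophages for 5 days in serum with L-cell conditioned medium, a source of macrophage colony-stimulating factor, so that all groups share this culture. Cells then received 500 nM Cort for 24 h, and the labels of the vehicle H3K27ac libraries state no time. The groups set beside this comparison were 100 nM dexamethasone (Dex), a synthetic glucocorticoid, for 24 h and 10 ng/ml interleukin 4 (IL4) for 24 h, with 3 H3K27ac libraries each, and GR libraries after vehicle and Cort, 4 of each. No allele or transgene is stated for any group. The labels do not say whether the libraries came from separate animals or cultures, so p-values cover only the spread between these libraries.

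H3K27ac is placed by the acetyltransferases p300 and CBP at active enhancers and promoters, and is removed by histone deacetylases. Glucocorticoids enter the cell and bind GR, a nuclear receptor that is held by chaperones in the cytoplasm and moves to DNA when it has ligand, where it can recruit coactivators or reduce the activity of inflammatory factors such as NF-kB and AP-1. In macrophages, glucocorticoids are known for limiting cytokine production and for favouring the uptake of dying cells.

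H3K27ac differed between Cort and vehicle in both directions. Of 59881 peaks with enough reads to be tested, 3858 (6.44%) were higher and 3673 (6.13%) were lower than vehicle, at an adjusted p under 0.05 in edgeR's quasi-likelihood test with the replicate number as a block and Benjamini-Hochberg adjustment over all tested peaks. The balance of the 2 sides depends on the settings: higher peaks were 51.2% of calls with TMM scaling, 41.3% with total counts, 60.9% with scaling by low-count peaks, 75.8% without the block and 63.3% without replicate 3. At a log2 change of at least 1 in size the counts were 1123 higher (1.88%) and 1122 lower (1.87%). The sides separated at larger sizes: 173 peaks rose and 31 fell by at least 2 on the log2 scale, and 25 rose and 0 fell by at least 3. The median log2 change was 0.74 among higher peaks, with 10% of them above 1.54, and -0.79 among lower peaks, with 10% of them below -1.39. The plot of change against abundance shows this longer upper tail. The 2 kinds of peak had similar abundance before treatment, at a median of 10.5 CPM (counts scaled to library size) in vehicle for higher peaks and 12.7 for lower peaks, against 3.52 for peaks that were not called.

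**Figure D1:**
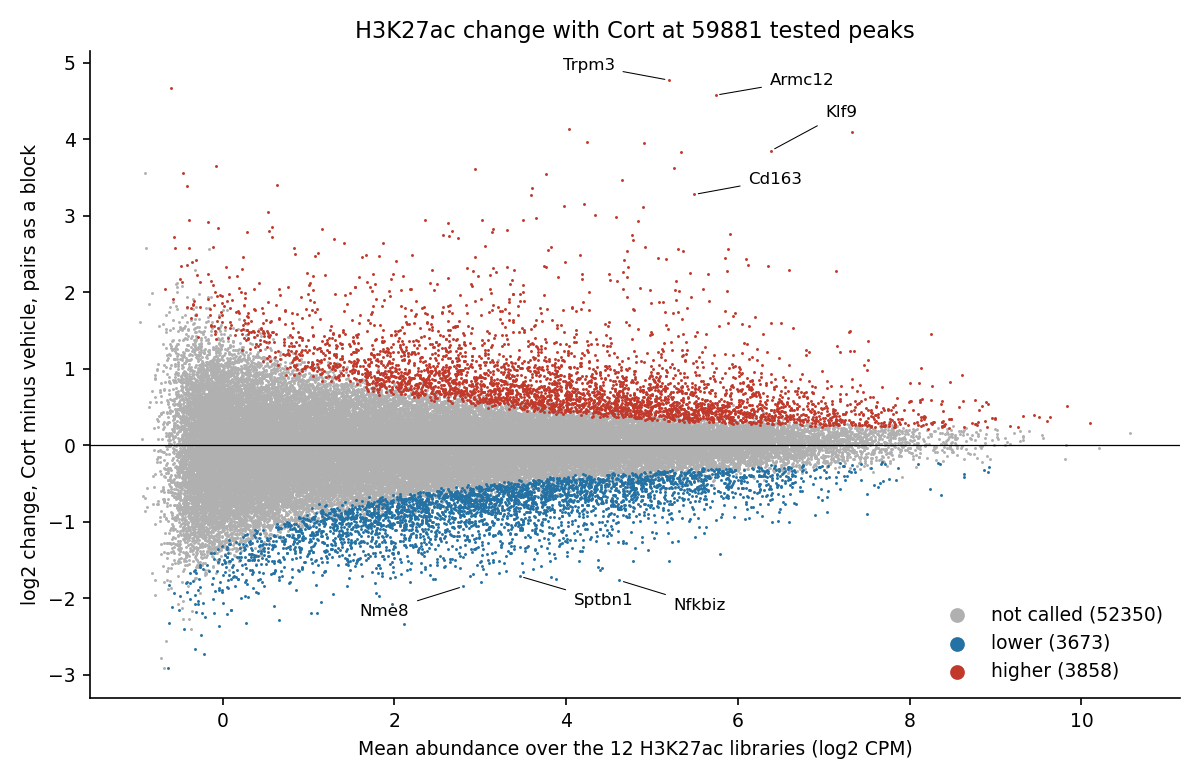
Each point is 1 of 59881 tested H3K27ac peaks, with mean abundance over the 12 H3K27ac libraries on the x axis (log2 CPM) and the log2 change with Cort on the y axis. Higher peaks (3858, red) reach 4.78, lower peaks (3673, blue) reach -2.92, and the 7 labelled peaks are among the named largest rises and lowest falls.

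The pairing carried much of the count. Without the block the same test called 704 higher peaks (1.18%) and 225 lower peaks (0.376%), all of which were among the paired calls with the same direction. Within pairs, 3825 of the 3858 higher peaks were up in all 3 pairs and 3616 of the 3673 lower peaks were down in all 3. The calls were made from these same pairs, so this agreement is not separate support for them. Of the 52350 peaks that were not called, 8831 were up in all 3 pairs and 9406 were down in all 3. Across pairs the separation was smaller: in 2772 higher peaks every Cort library lay above every vehicle library, an order that 5291 of all tested peaks (8.84%) showed, and in 2190 lower peaks every Cort library lay below, as in 5012 of all tested peaks (8.37%). Lower peaks changed most in the pair numbered 3, with a median within-pair log2 ratio of -0.98 against -0.70 and -0.63 in pairs 1 and 2, while for higher peaks the medians were 0.71, 0.67 and 0.75. In that pair the Cort library held 9076194 reads in peaks and the vehicle library 15695771, a ratio of 0.578, against ratios of 0.917 and 1.19 in the other pairs, and the part of this imbalance in the result was not tested.

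Peaks called from the other 2 replicate numbers could be read in the pair left out, whose values the call had not used. With number 1 left out, 1755 peaks were higher, and 1713 of the 1753 with a value (97.7%) were up in pair 1, with a median log2 ratio of 0.84. With number 3 left out the figures were 1728 of 1810 (95.5%) and 0.81, and with number 2 left out 3711 of 4294 (86.4%) and 0.41. Lower peaks were down in the left-out pair in 1479 of 1540 cases (96.0%) for pair 1, 3666 of 4443 (82.5%) for pair 2 and 1045 of 1050 (99.5%) for pair 3. Of all tested peaks, 48.4% to 50.4% were up in the left-out pair. At lower peaks the left-out medians were -0.73 in pair 1, -0.36 in pair 2 and -1.05 in pair 3. These medians come from different sets of peaks, 1544, 4445 and 1052 lower ones, so they do not rank the pairs. Over the lower peaks of the full fit, pair 2 stood at -0.63 and pair 1 at -0.70.

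Of the 12 largest rises, at most 1 per nearest gene, 5 lay around 3 genes known to respond to glucocorticoids, Klf9, Fkbp5 and Ddit4. A peak at chr19:23055641-23058868 (mm10), 60.2 kb from Trpm3 and 84.0 kb before the start site of Klf9, a Krüppel-like transcription factor, held 3.71, 2.38 and 0.930 CPM in vehicle libraries 1 to 3. With Cort it held 62.5, 57.0 and 54.9 CPM, a log2 change of 4.78 ± 0.24 (SE). The peak at chr19:23132836-23136994, 6.31 kb before the same start site, went from 13.1, 7.70 and 7.07 CPM to 144, 95.9 and 152 CPM, a change of 3.85 ± 0.14. At both sites the lowest Cort library lay many times above the highest vehicle library. Fkbp5 encodes a co-chaperone that lowers the affinity of GR for its ligand, and the peak at chr17:28521675-28526085, nearest to Armc12 and 37.7 kb before the Fkbp5 start site, went from 6.19, 4.01 and 2.67 CPM to 104, 94.3 and 91.9 CPM (4.58 ± 0.18). Ddit4 encodes an inhibitor of mTOR complex 1, and the peaks 18.6 kb and 16 kb before its start site changed by 3.97 ± 0.22 and 3.36 ± 0.25, the first of them assigned to Anapc16.

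Inside Zbtb16, which encodes the zinc-finger repressor PLZF, the peak at chr9:48722671-48725109 held 4.21, 1.06 and 0.620 CPM in vehicle and 30.8, 22.8 and 32.0 CPM with Cort, a change of 4.13 ± 0.29. Vehicle library 1 was the highest of its group there and was still below every Cort library. At Cd163, the haemoglobin-haptoglobin scavenger receptor, the peak at chr6:124277633-124281022 went from 9.91, 8.76 and 7.07 CPM to 82.5, 92.3 and 72.3 CPM (3.28 ± 0.13). The others of the 12 lay 123 kb from Sv2b (3.96 ± 0.17), in Ppp1r21 (3.62 ± 0.18), at Ube2s (3.62 ± 0.28), 79.3 kb from Ncoa2, a coactivator of nuclear receptors (3.47 ± 0.15), and in Mctp2 (3.27 ± 0.31). In all 12 the 3 Cort libraries lay above the 3 vehicle libraries, and all 12 were also called without the block.

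The 12 lowest falls were smaller in size than the 12 largest rises. The peak inside Nme8 (chr13:19660997-19662698) held 8.79, 24.2 and 15.0 CPM in vehicle and 3.26, 7.32 and 2.92 CPM with Cort, a log2 change of -1.84 ± 0.24. At Zfp36l1, which encodes an RNA-binding protein that destabilises AU-rich transcripts, a peak 108 kb away (chr12:79997695-79999950) went from 16.2, 26.3 and 22.7 CPM to 4.82, 9.41 and 5.05 CPM (-1.75 ± 0.18). A peak 48.8 kb from Ifng, the interferon gamma gene, went from 7.80, 15.9 and 12.5 CPM to 2.98, 6.62 and 1.91 CPM (-1.70 ± 0.25). In these 3 peaks the groups did not overlap, and library 2 was the highest of both groups. A peak 220 kb from Nfkbiz, which encodes an atypical inhibitor of NF-kB (chr16:55588120-55591094), held 39.3, 79.1 and 48.4 CPM in vehicle and 7.80, 44.3 and 9.20 CPM with Cort (-1.77 ± 0.22). There the Cort library 2 lay above vehicle library 1, so that the groups overlapped. Each pair fell, which the rule for naming peaks requires.

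The other 8 lowest falls lay at Magi3 (66.9 kb away, -1.79 ± 0.25), Senp6 (25.2 kb, -1.79 ± 0.21), Ubap2 (-1.75 ± 0.31), Gsdmc (804 kb, -1.74 ± 0.32), Phlda1 (64.8 kb, -1.72 ± 0.28), Sptbn1 (15.0 kb, -1.71 ± 0.22), Fat3 (-1.71 ± 0.23) and Rasal2 (-1.69 ± 0.25). Among all 12, only the peaks at Zfp36l1 (adjusted p = 0.00802) and Fat3 (0.0156) were also called by edgeR without the block, where the other 10 had adjusted p of 0.0633 to 0.404. The paired plot shows that library 2 was the highest in vehicle and in Cort at each of these 12 peaks.

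**Figure D2:**
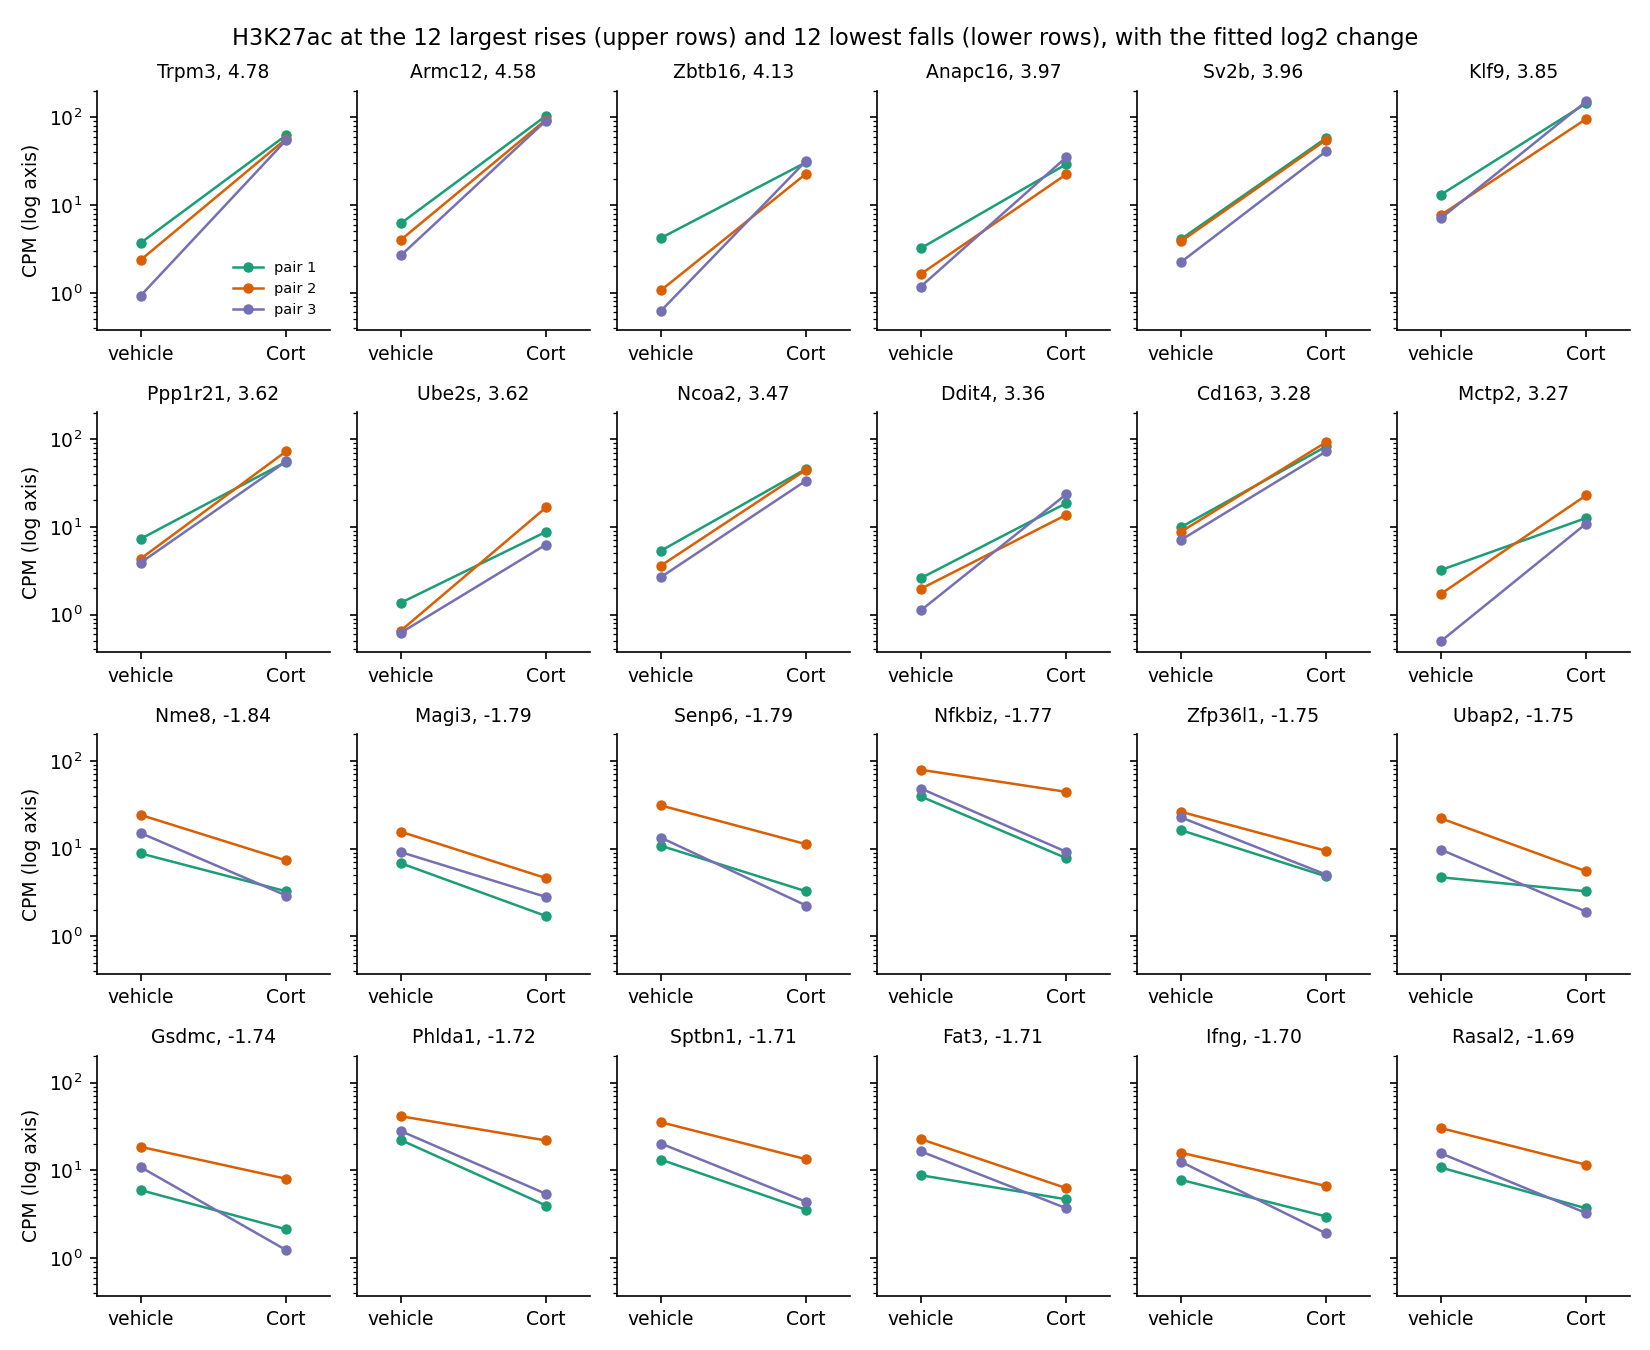
H3K27ac in CPM (log y axis) in vehicle and Cort libraries at the 12 largest rises and the 12 lowest falls, with a line for each of the 3 pairs and the fitted log2 change in each title. All 12 rises have separate groups, and in the falls pair 2 (orange) lies above the other pairs. All 3 lines of a panel go the same way because the naming rule requires it.

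A larger share of higher than of lower peaks overlapped places bound by GR. GR peaks came from macrophages grown and treated the same way, with double crosslinking, and 3905 of the tested H3K27ac peaks overlapped at least 1 of them by 1 bp or more. Of these, 1183 (30.3%) were higher and 164 (4.20%) lower with Cort, while of the 55976 peaks with no GR peak 2675 (4.78%) were higher and 3509 (6.27%) lower. GR binding itself was tested at 5183 GR peaks over all 15 GR libraries with batch as a covariate, where 662 (12.8%) were higher and 769 (14.8%) lower with Cort. Of the 616 H3K27ac peaks that held a GR peak higher with Cort, 468 (76.0%) were higher and 5 (0.812%) lower. The higher share was 39.4% (243 peaks) without the block, and 59.5% and 62.9% without replicates 1 and 3. Of the 127 that held a lower GR peak and no higher one, 10 (7.87%) were higher and 7 (5.51%) lower, near the 6.44% and 6.13% of all tested peaks. Both GR counts depend on the scaling, since 1556 higher and 24 lower peaks were called when total counts were used.

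GR peaks lay in more abundant H3K27ac peaks, at a median of 28.5 CPM in vehicle against 3.80 without GR, and abundance raises the power of the test. Within the most abundant 25% of peaks, 33.1% of those with a GR peak were higher and 5.13% lower, against 8.50% and 8.67% of those without. In the next 25% the figures were 33.0% and 3.40% with GR, and 6.85% and 9.71% without. Of the 100 higher peaks with the smallest p, 90 held a GR peak and 82 a GR peak that was higher with Cort, and of the 100 lower peaks 6 and 0 did. Over all tested peaks the shares were 6.52% and 1.03%, which are not matched for abundance. Within the most abundant 25%, 2671 of 14970 tested peaks held a GR peak, and 137 of the 1203 lower ones did. In the next 25% these counts were 706 of 14970 and 24 of 1409, so lower peaks held GR peaks less often at like abundance. Seen from the receptor, 650 of the 662 higher GR peaks (98.2%) lay in a tested H3K27ac peak, against 135 of the 769 lower ones (17.6%) and 4430 of all 8394 GR peaks (52.8%). Most called peaks nevertheless held no GR peak: 69.3% of the higher and 95.5% of the lower, against 93.5% of all tested peaks.

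All 12 largest rises held a GR peak that was higher with Cort, and none of the 12 lowest falls held a GR peak. Since 6.52% of all tested peaks overlapped a GR peak, its absence at 12 falls is near the share over all peaks. At the peak before Klf9 that is nearest to Trpm3, GR libraries held 5.66, 3.34, 4.45 and 7.75 CPM after vehicle and 99.6, 93.5, 60.5 and 91.7 CPM after Cort, a log2 change of 4.01 ± 0.39. At the peak in Zbtb16 they held 8.49, 8.92, 6.35 and 14.2 CPM and then 108, 118, 81.4 and 85.5 CPM (3.35 ± 0.35). At both sites the 4 Cort libraries lay far above the 4 vehicle libraries. The smallest GR change among them was at Cd163, from 1.42, 6.69, 6.99 and 5.17 CPM to 14.8, 19.7, 14.1 and 6.19 CPM (1.32 ± 0.46, adjusted p = 0.0445 in edgeR), and there Cort library 4 lay below vehicle libraries 2 and 3.

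**Figure D3:**
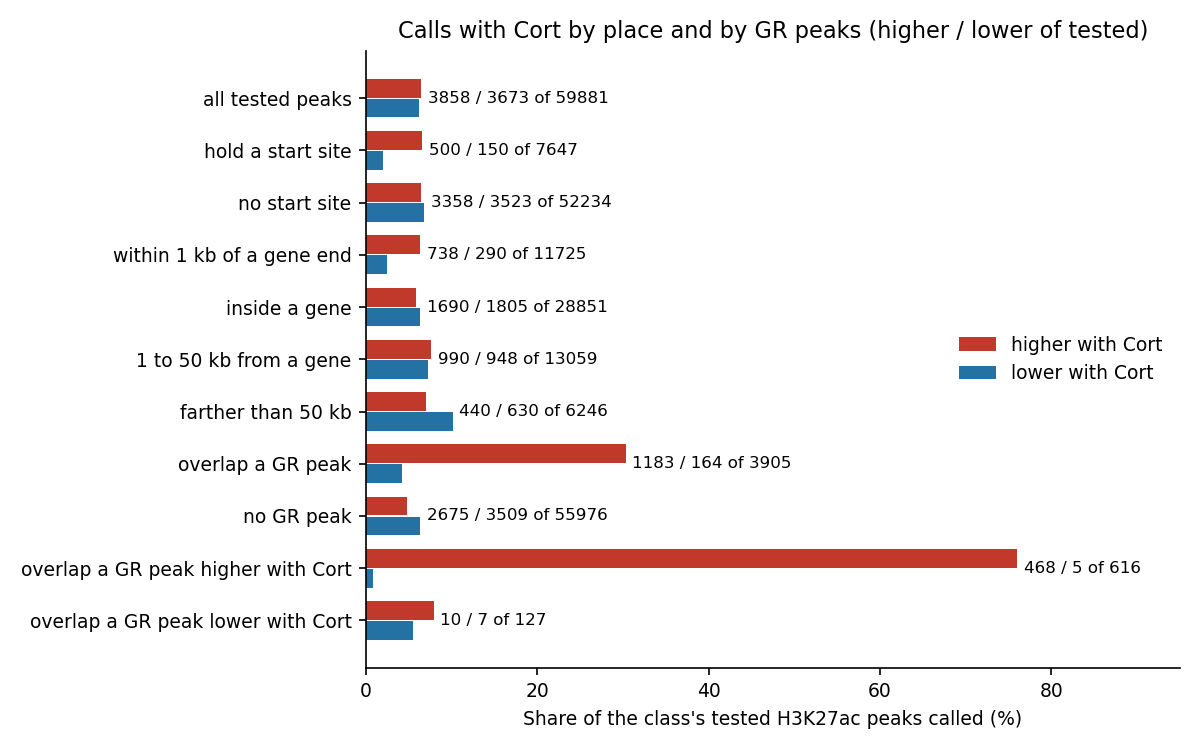
Share of tested H3K27ac peaks called higher (red) and lower (blue) with Cort, in percent, for each class of place and by overlap with GR peaks. Peaks with a GR peak that was higher with Cort stand out at 468 of 616 higher, and peaks at start sites have few lower calls, 150 of 7647.

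Rises and falls differed in where they lay relative to genes. Of the 7647 tested peaks that held an annotated start site, 500 (6.54%) were higher and 150 (1.96%) lower, while of the 52234 without one 3358 (6.43%) were higher and 3523 (6.74%) lower. Start-site peaks are the more abundant ones, yet within the most abundant 25% of peaks 8.42% of them were higher and 2.17% lower, against 15.2% and 11% of the peaks with no start site. By distance to a gene span, peaks within 1 kb of either end of a gene were lower in 290 of 11725 cases (2.47%), and peaks farther than 50 kb from a gene in 630 of 6246 (10.1%). Higher peaks varied less over these places, between 5.86% inside genes and 7.58% at 1 to 50 kb from them. By length, of the 916 peaks over 8000 bp, 213 (23.3%) were higher and 70 (7.64%) lower, and of the 15835 peaks up to 500 bp, 1.05% and 1.04%.

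Promoter sequence was looked at where a called peak held the start site. The palindromic core of a GR response element was searched as GNACANNNTGTNC, which reads the same on both strands, in the 250 bases before and 50 after each start site of the RefSeq table (GRCm38.p6, the sequence of mm10). It was found in 88 of 19863 named promoters (0.443%), in 3 of 635 whose start site lay in a higher peak (0.472%), in 0 of 178 in a lower peak and in 20 of 8919 in a peak that was not called (0.224%). The shorter AGAACA, searched on both strands (TGTTCT on the other) and able to overlap the core, was in 16% of all promoters, 13.9% of those in higher, 14.0% of those in lower and 11.6% of those in uncalled peaks. The 3 promoters with the core in a higher peak are shown with that of Ddit4, which has a larger change and no core in this window. Each line gives the 250 bases before the start site on the strand of the gene, from RefSeq, with the core in capitals.
Ddit4, chr10:59951771-59952020, minus strand: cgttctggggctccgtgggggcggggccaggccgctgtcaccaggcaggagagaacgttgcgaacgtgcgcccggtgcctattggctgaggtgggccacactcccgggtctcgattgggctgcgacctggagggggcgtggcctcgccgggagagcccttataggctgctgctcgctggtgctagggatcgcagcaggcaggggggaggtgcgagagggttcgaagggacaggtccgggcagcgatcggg
Slc10a6, chr5:103629404-103629653, minus strand: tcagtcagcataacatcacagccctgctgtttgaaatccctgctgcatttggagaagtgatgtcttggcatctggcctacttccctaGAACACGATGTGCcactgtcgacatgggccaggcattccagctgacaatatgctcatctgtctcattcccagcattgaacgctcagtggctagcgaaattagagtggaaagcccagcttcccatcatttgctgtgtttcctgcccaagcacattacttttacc
Map3k6, chr4:133240568-133240817, plus strand: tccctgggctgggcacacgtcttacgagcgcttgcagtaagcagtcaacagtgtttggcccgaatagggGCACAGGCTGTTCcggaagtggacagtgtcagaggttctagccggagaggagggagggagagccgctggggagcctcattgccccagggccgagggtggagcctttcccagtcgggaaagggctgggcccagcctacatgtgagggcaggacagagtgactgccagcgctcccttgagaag
Mt1, chr8:94178839-94179088, plus strand: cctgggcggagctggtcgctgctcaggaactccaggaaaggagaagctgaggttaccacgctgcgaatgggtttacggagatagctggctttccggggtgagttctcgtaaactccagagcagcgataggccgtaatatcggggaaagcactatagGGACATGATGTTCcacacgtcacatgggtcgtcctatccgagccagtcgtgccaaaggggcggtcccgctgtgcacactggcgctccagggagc

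The core begins 163 bases before the start site in Slc10a6, 181 in Map3k6 and 94 in Mt1. The peak over the Ddit4 start site held 17.2, 17.7 and 14.3 CPM in vehicle and 97.8, 64.1 and 113 CPM with Cort, a log2 change of 2.44 ± 0.16. At Slc10a6, a transporter of sulfated steroids, the values were 16.1, 11 and 14.3 CPM and then 42.5, 32.6 and 47.5 CPM (1.57 ± 0.12), and at Map3k6, a kinase of stress signalling, 27.5, 27.1 and 24.5 CPM and then 39.8, 45.9 and 46.3 CPM (0.75 ± 0.11). In these 3 promoters the groups did not overlap. Mt1, a metallothionein that binds zinc and is a classical glucocorticoid target, went from 60.9, 60.9 and 67.1 CPM to 80.8, 66.4 and 91.9 CPM (0.33 ± 0.09, adjusted p = 0.0212 in edgeR), where Cort library 2 lay below vehicle library 3. The GR peak over the core in Mt1 changed by 0.49 ± 0.25 with Cort and was not called (adjusted p = 0.162 in edgeR).

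Called peaks lay near others of the same direction. Of the neighbours within 50 kb of a higher peak, 22.7% were higher and 1.53% lower. Of the neighbours of a lower peak, 17.9% were lower and 1.98% higher, and around uncalled peaks the shares were 6.12% higher and 5.00% lower. Peaks of 1 direction with gaps of at most 50 kb formed 154 runs of 5 or more higher peaks, with 27.1% of all higher peaks in them, and 81 such runs of lower peaks with 14.8%. The longest of each kind held 19 peaks: a higher run from Ms4a4a to Ms4a6c on chromosome 19, genes of a family of membrane proteins, among 53 tested peaks, and a lower run at Nfkbiz and Nxpe3 on chromosome 16, among 38. Near copies within the Ms4a family could share reads, so the place of single peaks there is uncertain.

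Around Fkbp5 the higher run was close to unbroken. Of 21 tested peaks within 150 kb of its start site 17 were higher, from 41.2 kb before to 93.8 kb after it, and the 4 with a GR peak all had GR peaks higher with Cort. Other dense higher runs held 13 of 13 tested peaks at Jdp2 and Fos, which encode AP-1 factors, 14 of 18 at F13a1, the A chain of coagulation factor XIII, and 13 of 16 at Zbtb16. Near Klf9, 8 of 14 peaks were higher, near Ddit4 11 of 23, and near Cd163 13 of 19 with 1 lower. At Fkbp5, Klf9, Ddit4 and Cd163 the largest change lay at a site with a GR peak, 37.7, 84.0, 18.6 and 25.3 kb before the start site. The peak nearest to the start changed by 1.95 ± 0.27 at Fkbp5, 1.94 ± 0.13 at Klf9 and 2.44 ± 0.16 at Ddit4.

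Among the lower runs, at Prkcb, which encodes the beta isoform of protein kinase C, 13 of 24 tested peaks within 150 kb of the start site were lower and 1 was higher, with changes from -0.49 to -1.72. At Blnk, a linker protein of B cell receptor type signalling, 9 of 19 were lower. At Lpl, lipoprotein lipase, 11 of the 14 tested peaks of a run were lower, with a median of -0.74. Of the peaks near Prkcb 1 overlapped a GR peak and it was not called, and none near Blnk did. The plot of loci shows these 2 genes beside the 4 with dense rises.

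**Figure D4:**
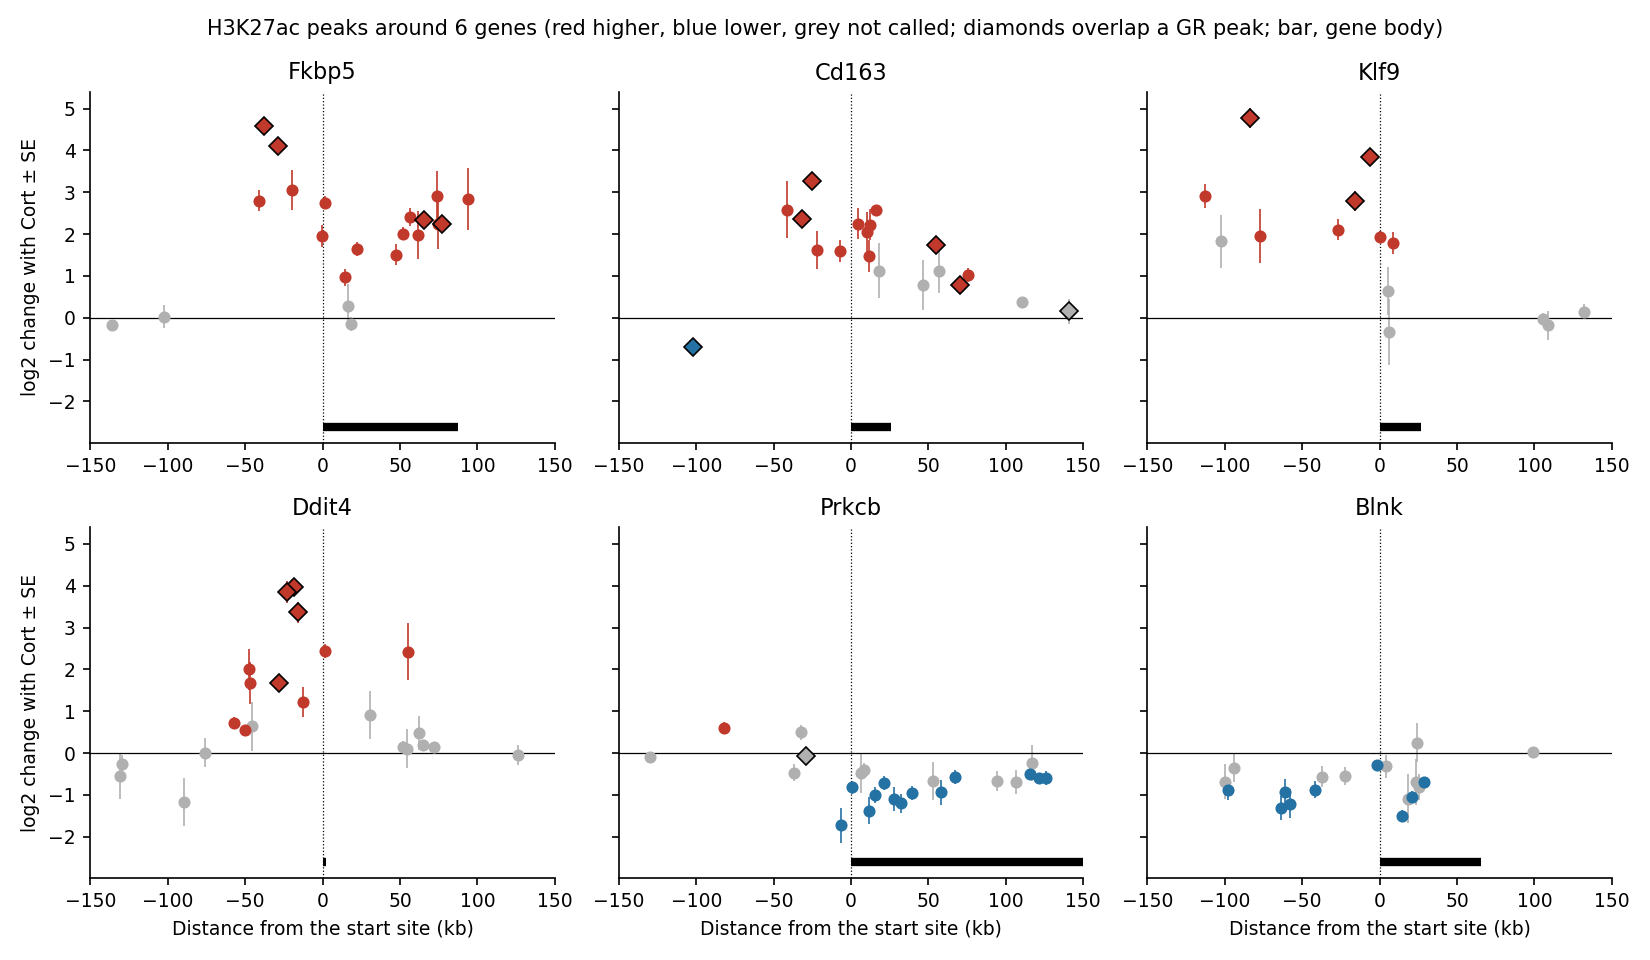
Log2 change with Cort ± SE (y axis) of each tested H3K27ac peak within 150 kb of the start site (x axis, kb, negative before the start) of 6 genes, with the gene body as a black bar and diamonds for peaks that overlap a GR peak. At Fkbp5 17 of 21 peaks are higher (red), and at Prkcb 13 of 24 are lower (blue).

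Counted by gene, 12811 named genes had a tested peak within 50 kb assigned to them, and 1972 had a higher peak, 1887 a lower peak and 273 both. The most higher peaks were assigned to Dock10, an exchange factor for small GTPases (15 of 43), Sgms1, sphingomyelin synthase 1 (15 of 33), Fkbp5 (14 of 16), Zbtb16 (13 of 16), Irf2 (13 of 33), the mannosidases Man1c1 (11 of 25) and Man2a1 (10 of 22), and Cd163 (10 of 13). The most lower peaks were assigned to Lpp, a protein of focal adhesions (17 of 70), Prkcb (13 of 26), Rapgef5, an exchange factor for Rap proteins (12 of 35), the myosin Myo1e (11 of 36, with 1 higher), Cdk19 (10 of 28), Snd1 (10 of 40), St7 (8 of 25) and Enox2 (8 of 16). Many of these are long genes with many peaks. The called changes had a median of 2.24 at Fkbp5, 2.51 at Zbtb16 and 2.14 at Cd163, and of -0.83 at Lpp and -1.05 at Enox2.

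Gene lists were described through the peak with the smallest p among those assigned to each gene, which rose, fell or did not pass. Over all genes 1853 rose, 1733 fell and 9225 did not pass, and of the 53635 assigned peaks 6.37% were higher and 5.67% lower with a median log2 change of 0.00. A gene with many peaks has more chances to pass, so the share of peaks is given beside the count of genes. All lists were written with earlier results of these data known, so an excess near their genes is not independent of the choice of genes. Of 31 measured genes of the glucocorticoid-induced list, 18 rose, 5 fell and 8 did not pass, and 86 of their 245 peaks (35.1%) were higher and 13 (5.31%) lower, with a median of 0.38. Of the 86 higher peaks 14 belonged to Fkbp5, 13 to Zbtb16 and 10 to Cd163. Without the block 10 genes of this list rose and 1 fell. Beyond Klf9, Cd163 and Fkbp5, the smallest p belonged to Tsc22d3, which encodes the anti-inflammatory leucine zipper protein GILZ, and Klf13. The Tsc22d3 peak 23.9 kb from the gene held 47.2, 44.4 and 46.8 CPM in vehicle and 234, 201 and 240 CPM with Cort (2.28 ± 0.09). The peak in Klf13 went from 19.6, 12 and 13.6 CPM to 101, 97.2 and 102 CPM (2.77 ± 0.13). Both changed in all 3 pairs with no overlap of the groups, and both held GR peaks higher with Cort.

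Few peaks of the receptor and its cofactors rose. Of 20 measured genes 1 rose, 5 fell and 14 did not pass, where 1733 of 12811 genes fell over all genes. By peaks 2 of 142 (1.41%) were higher and 8 (5.63%) lower, against 6.37% and 5.67% of all assigned peaks. The peak 79.3 kb from Ncoa2 (3.47), 1 of the 12 largest rises, lies beyond the 50 kb limit and is not counted here. A peak in Nr3c1, the gene of GR itself, held 13.6, 21.0 and 16.4 CPM in vehicle and 7.51, 12.2 and 7.18 CPM with Cort (-0.94 ± 0.16, adjusted p = 0.000397 in edgeR), and 3 of its 13 peaks were lower and 0 higher. A peak in Ncoa1, a p160 coactivator, went from 6.56, 11.4 and 8.50 CPM to 2.69, 5.02 and 2.81 CPM (-1.33 ± 0.22). Groups did not overlap in either, but without the block edgeR gave adjusted p of 0.187 and 0.0706. A peak in the corepressor gene Ncor1 fell (-0.93 ± 0.26), and a peak in the coactivator gene Ncoa3 rose (0.53 ± 0.13). Both calls were also lost when single libraries were left out, and no gene of this list fell without the block.

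Among regulators of the bZIP, KLF and C/EBP families 14 of 26 measured genes rose, 2 fell and 10 did not pass, with 30 of 211 peaks higher and 4 lower and a median change of 0.13. A peak 45.0 kb from Fos, a subunit of AP-1, held 18.2, 16.8 and 20.9 CPM in vehicle and 76.4, 83.0 and 72.6 CPM with Cort (2.05 ± 0.13). The peak over the start site of Cebpa, a factor of myeloid differentiation, went from 49.5, 30.9 and 48.6 CPM to 85.0, 43.9 and 102 CPM (0.80 ± 0.12), and a peak 31.2 kb from Klf6 from 18, 56.5 and 24.7 CPM to 6.95, 35.5 and 6.17 CPM (-1.23 ± 0.22). The groups were separate at Fos and overlapped at Cebpa and Klf6, whose calls were lost without the block, where 3 genes rose and 0 fell.

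In the circadian clock list 3 of 17 measured genes rose, 2 fell and 12 did not pass, and 7 of 89 peaks (7.87%) were higher and 4 (4.49%) lower, near the shares of all assigned peaks. The peak over the start site of Per1, a repressor of the clock and a direct GR target, held 100.2, 101 and 82.2 CPM in vehicle and 218, 228 and 220 CPM with Cort (1.24 ± 0.09). Per2 (1.70 ± 0.25) and Nfil3, a bZIP repressor (1.41 ± 0.15), also rose with separate groups, and all 3 rose without the block. A peak 43.6 kb from Arntl, the partner of CLOCK, changed by -1.12 ± 0.25 and a weak peak in Rora by -1.59 ± 0.52, and both calls were lost without the block and on leaving out single replicate numbers.

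Genes for the uptake of dying cells and of ligands came next. Of 28 measured genes of efferocytosis and scavenger receptors, 11 rose, 6 fell and 11 did not pass. By peaks 39 of 292 (13.4%) were higher and 13 (4.45%) lower, against 6.37% and 5.67% of all assigned peaks. Of those 39 higher peaks 10 belonged to Cd163 and 9 to Mertk, genes that are also on the glucocorticoid-induced list. A peak in Mertk, a receptor tyrosine kinase that recognises apoptotic cells through bridging proteins, held 74.5, 89.0 and 89.9 CPM in vehicle and 195, 209 and 223 CPM with Cort (1.31 ± 0.09), and 9 of its 20 peaks were higher. Cd300lf, a receptor for phospholipids, rose at its start site by 0.88 ± 0.10, Stab1, the scavenger receptor stabilin-1, by 0.60 ± 0.09 and the integrin gene Itgb5 by 1.40 ± 0.16, each with groups that did not overlap. Without the block 4 genes of this list rose and 1 fell.

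Of 25 measured genes of Fc receptors and their signalling 7 rose, 4 fell and 14 did not pass. By peaks 17 of 250 (6.8%) were higher and 10 (4.0%) lower, near the shares of all assigned peaks. The peak over the start site of Fcgr3, an activating receptor for IgG, held 125, 101 and 115 CPM in vehicle and 223, 167 and 203 CPM with Cort (0.79 ± 0.08), and a peak in Fcgr2b, the inhibitory receptor, rose by 0.77 ± 0.15. Genes of the Fcgr cluster are similar in sequence and could share reads. A peak in Blnk went from 33.8, 65.9 and 51.4 CPM to 12.8, 23.1 and 16.8 CPM (-1.51 ± 0.14). In these 3 peaks the groups were separate. A peak in Lyn, a Src family kinase, rose by 0.68 ± 0.11, and without the block 1 gene rose and 2 fell.

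Inflammatory cytokines and NF-kB regulators had more lower than higher peaks. Of 32 measured genes 5 rose, 7 fell and 20 did not pass, where 9225 of 12811 did not pass over all genes. By peaks 10 of 193 (5.18%) were higher and 16 (8.29%) lower, against 6.37% and 5.67% of all assigned peaks. The median change was -0.11. The peak over the start site of Tnip3, an inhibitor of NF-kB signalling, held 193, 259 and 232 CPM in vehicle and 142, 197 and 141 CPM with Cort (-0.52 ± 0.09). A peak 13.6 kb from Nfkbiz changed by -0.72 ± 0.12 and one in Cd40, a costimulatory receptor, by -0.59 ± 0.14. Peaks over the start sites of Nlrp3, the sensor of an inflammasome, and Nfkbia, which encodes the NF-kB inhibitor IkB alpha, rose by 0.46 ± 0.08 and 0.43 ± 0.08, and both held GR peaks. Groups overlapped at Tnip3, Nfkbiz and Nfkbia, and 0 genes of this list rose or fell in edgeR without the block.

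Of 25 measured genes of chemokines and their receptors 11 rose, 3 fell and 11 did not pass, with 26 of 126 peaks (20.6%) higher and 3 lower and a median of 0.16. A peak 21.5 kb from Cxcr4, the receptor of CXCL12, held 8.79, 7.86 and 6.33 CPM in vehicle and 41.1, 36.7 and 61.3 CPM with Cort (2.60 ± 0.18). Cmklr1, the receptor of chemerin, went from 109.7, 131 and 95.8 CPM to 181, 207 and 179 CPM (0.76 ± 0.08). The groups were apart at both. A peak 7.43 kb from Ccr1 rose by 1.07 ± 0.11 with groups that overlapped, one 15.4 kb from Ccl3 rose by 0.83 ± 0.14, and one 37.5 kb from Cxcl14 fell by 0.93 on the log2 scale (SE 0.17). Without the block 3 genes rose and 1 fell.

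In the interferon list 6 of 31 measured genes rose, 4 fell and 21 did not pass, with 24 of 177 peaks higher and 4 lower. Of those 24 higher peaks 13 belonged to Irf2, which encodes a transcription factor that competes with IRF1. Its peak with the smallest p held 104, 97.9 and 117 CPM in vehicle and 218, 206 and 210 CPM with Cort (0.99 ± 0.08). Ifngr1, a chain of the interferon gamma receptor, rose by 1.08 ± 0.17 and the RNA sensor gene Tlr7 by 0.58 ± 0.10, whereas Ifih1, which encodes the RNA sensor MDA5, went from 15.2, 17.9 and 15.1 CPM to 6.24, 9.27 and 5.72 CPM (-1.19 ± 0.17). A peak in Usp18, a brake on the type I interferon receptor, changed by -1.09 ± 0.21 with overlapping groups. Without the block 2 genes rose and 1 fell.

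In Toll-like receptor signalling 10 of 32 measured genes rose, 9 fell and 13 did not pass, and 17 of 204 peaks (8.33%) were higher and 13 (6.37%) lower, against 6.37% and 5.67% of all assigned peaks. A peak 21.1 kb from Dusp1, a phosphatase of MAP kinases, held 205, 215 and 192 CPM in vehicle and 288, 327 and 298 CPM with Cort (0.58 ± 0.09). Ly96, the partner of TLR4, rose by 0.95 ± 0.15 and Tlr5 by 1.10 ± 0.15, while Traf6 (-0.69 ± 0.13) and Dusp5 (-1.48 ± 0.29) fell, all with groups that did not overlap. Without the block 2 genes of this list rose and 0 fell.

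Genes of alternative activation, most of them known from the response to IL4, rose in 12 of 29 cases, fell in 5 and did not pass in 12, with 20 of 188 peaks higher and 9 lower. A peak 2.63 kb from Chil3, a chitinase-like protein of the mouse, held 2.72, 1.31 and 0.682 CPM in vehicle and 9.92, 5.79 and 5.72 CPM with Cort (2.29 ± 0.26), so that a low level rose in every pair. Slc7a2, a carrier of arginine, rose by 1.97 ± 0.27 at a peak 10.0 kb away, Atp6v0d2, a subunit of the proton pump, by 1.10 ± 0.16, Kdm6b, a demethylase of H3K27, by 0.95 ± 0.12 and Il4ra, the alpha chain of the IL4 receptor, by 0.85 ± 0.13. All 5 had separate groups, and 5 genes rose and 0 fell without the block.

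Lipid metabolism went both ways. Of 31 measured genes 12 rose, 9 fell and 10 did not pass, with 20 of 238 peaks (8.40%) higher and 23 (9.66%) lower. The peak at Apoc2 held 26, 24.6 and 25.7 CPM in vehicle and 58.1, 51.5 and 63.3 CPM with Cort (1.18 ± 0.11), and the peak over the start site of Apoe, its neighbour, went from 114, 135 and 115 CPM to 229.6, 182 and 261 CPM (0.86 ± 0.12). Both encode apolipoproteins. Of the 2 GR peaks at Apoe 1 was called lower with Cort (-0.90 ± 0.29, adjusted p = 0.0339 in edgeR). In batch 1 it went from 801 and 1277 CPM in vehicle libraries 1 and 2 to 416 and 674 CPM. In batch 2 it went from 8.89 and 14.2 CPM in vehicle libraries 3 and 4 to 5.65 and 6.75 CPM. Its level differed far more between batches than between treatments. Lower GR calls also depend on the scaling, with 769 here and 24 with total counts. A loss of GR at Apoe is therefore not established. The other GR peak at Apoe (-0.97 ± 0.42) and the one at Apoc2 (0.62 ± 0.29) were not called. Lpl went the other way, from 114, 86.1 and 148 CPM to 57.0, 60.7 and 64.9 CPM (-0.91 ± 0.11), with 7 of its 11 peaks lower and 0 higher. Fabp4, a fatty acid carrier, rose by 0.96 ± 0.14 and Rxra, a partner of nuclear receptors, by 0.98 ± 0.14, the latter with overlapping groups. Without the block 3 genes rose and 1 fell.

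For PI3K, FOXO and mTOR signalling 9 of 30 measured genes rose, 8 fell and 13 did not pass, while 23 of 313 peaks (7.35%) were higher and 20 (6.39%) lower, near the shares of all assigned peaks. The genes with the smallest p beside Ddit4 were Rptor and Deptor, a subunit and an inhibitor of mTOR complex 1. A peak in Rptor held 16.6, 9.83 and 15.6 CPM in vehicle and 64.3, 35.3 and 73.7 CPM with Cort (2.03 ± 0.12), and one in Deptor 2.48, 1.39 and 1.92 CPM and then 17.9, 8.30 and 15.2 CPM (2.82 ± 0.19). Both were separate between groups and held GR peaks higher with Cort. A peak 28.3 kb from Pik3r1, the regulatory subunit of PI3K, rose by 2.32 ± 0.21, and one in Pik3ap1, an adaptor of PI3K, fell by 1.02 on the log2 scale (SE 0.17). Without the block 4 genes rose and 0 fell.

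Adhesion, guidance and cytoskeleton genes fell in 17 of 38 cases, rose in 10 and did not pass in 11, with 36 of 589 peaks higher and 43 lower, so that by peaks the list stood near the shares of all assigned peaks. Tns1, which links integrins to actin, had the smallest p and rose, from 13.7, 17.0 and 12.2 CPM to 44.1, 62.1 and 50.7 CPM (1.88 ± 0.12). Plxna2, a semaphorin receptor, went from 13, 16.8 and 19.5 CPM to 5.24, 5.02 and 6.96 CPM (-1.53 ± 0.16). A peak 1.61 kb from Itgal, the alpha chain of LFA-1, went from 23.5, 47.1 and 29.3 CPM to 8.93, 24.3 and 10.2 CPM (-1.26 ± 0.14), and there Cort library 2 lay above vehicle library 1. Without the block 3 genes rose and 3 fell.

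Of the genes of matrix, proteases and growth factors 12 of 30 rose, 5 fell and 13 did not pass, with 21 of 192 peaks (10.9%) higher and 12 (6.25%) lower. A peak 5.17 kb from F13a1 held 19.2, 11.8 and 10.5 CPM in vehicle and 54.1, 44.6 and 46.8 CPM with Cort (1.86 ± 0.14), and the start-site peaks of the adjacent coagulation factor genes F7 and F10 rose by 1.25 ± 0.10 and 0.72 ± 0.12. The proteases Adam9 (1.23 ± 0.13) and Mmp19 (0.82 ± 0.09) also rose, and all 5 had separate groups. Without the block 5 genes rose and 0 fell.

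The cell cycle list had 7 of 28 measured genes higher, 3 lower and 18 not passing, with 18 of 139 peaks higher and 6 lower. The peak over the start site of Ccnd3, which encodes cyclin D3, held 23.2, 27 and 12 CPM in vehicle and 92.4, 101 and 98.0 CPM with Cort (2.28 ± 0.16). A peak 3.77 kb from Wee1, a kinase that holds back entry into mitosis, rose by 1.46 ± 0.11, one in Ccnd1, cyclin D1, by 0.90 ± 0.11, one in Rb1, the retinoblastoma protein, by 0.84 ± 0.14 and one in Mki67, a marker of proliferation, by 0.99 ± 0.18. The 5 named peaks had separate groups. Without the block 4 genes rose and 0 fell.

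Genes of macrophage identity showed modest changes around high levels. Of 20 genes 19 had an assigned peak, and their summed H3K27ac was 6331, 7079.6 and 6631 CPM in vehicle and 6726, 7538 and 7383 CPM with Cort. By gene 9 rose, 5 fell and 5 did not pass, with 15 of 213 peaks (7.04%) higher and 11 (5.16%) lower. Runx1 rose by 0.84 ± 0.11, Irf8 by 0.78 ± 0.15 and Mpeg1 by 0.31 ± 0.07, while Mef2c changed by -0.70 ± 0.12. All of them encode transcription factors of myeloid cells but Mpeg1, a pore-forming protein of phagocytes. In edgeR without the block 0 genes of this list rose or fell. MHC class II genes did not pass in any of 13 cases: the smallest p was at H2-Oa (0.52 ± 0.19, adjusted p = 0.0847), and the master regulator Ciita changed by -0.35 ± 0.14. Of 24 measured housekeeping and ribosomal genes 2 rose, 2 fell and 20 did not pass, and Rpl37 rose by 0.88 ± 0.10 at a peak 5.13 kb away.

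**Figure D5:**
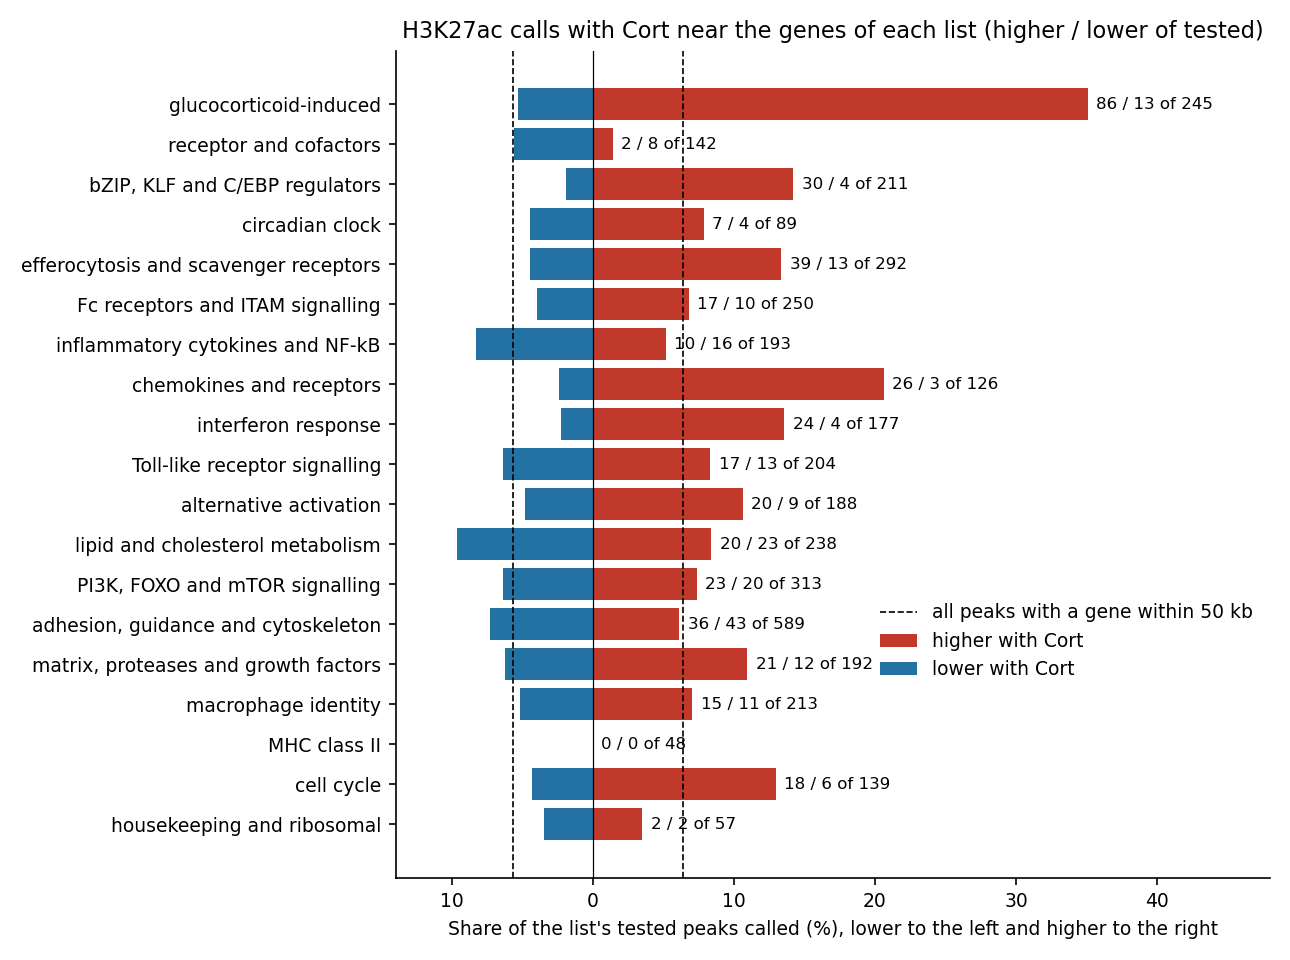
Share of the tested peaks near the genes of each of 19 lists called higher (red, to the right) or lower (blue, to the left) with Cort, in percent, with the counts printed and dashed lines at 6.37% and 5.67% for all assigned peaks. The glucocorticoid-induced list stands at 86 of 245 peaks higher, and no peak of the MHC class II list was called. The lists were written with earlier results of these data known.

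The cell type label was checked against markers of other cells. Of 8 fibroblast markers 1 had an assigned peak (Pdgfrb), of 6 mast cell or basophil markers 2, of 7 erythroid or megakaryocyte markers 2, of 8 lymphoid markers 4 and of 9 neutrophil markers 5. Their summed H3K27ac in vehicle and Cort was 52.5 to 82.8 CPM for the fibroblast list, 5.15 to 5.72 for mast cells, 65.1 to 101 for erythroid cells, 172 to 281 for lymphoid cells and 146 to 194 for neutrophils. The dendritic (8 of 8 markers) and osteoclast (7 of 8) lists, which macrophages share in part, summed to 863 to 1005 and 439.9 to 661 CPM. Sums grow with the number of peaks, 213 for macrophage identity against 6 fibroblast, 12 lymphoid and 3 erythroid ones, so they do not compare the lists. Per kb of the top peak of each gene in vehicle, macrophage genes held 9.47 to 36.3 CPM, with a median of 20.3. The highest other markers lay within that range for Ms4a1 (lymphoid, 23.3), Pf4 (erythroid, 20.4), Csf3r (neutrophil, 15.8) and Pdgfrb (13.1). Gata2 (mast cell, 4.56) lay below it. Collagen and other defining fibroblast genes (Col1a1, Col1a2, Col3a1, Pdgfra, Dcn, Lum and Thy1) had no tested peak assigned. The called Pdgfrb peak begins at chr18:61085887, near a peak of Csf1r that begins at chr18:61097651, and a part of the Csf1r region in the Pdgfrb level was not tested. The fibroblast sum, all from Pdgfrb, was 52.5, 61.5 and 55.4 CPM in vehicle and 64.6, 82.8 and 73.4 CPM with Cort, with separate groups, and the lymphoid sum was 215, 281 and 229 CPM and then 185, 219.7 and 172 CPM, with groups that overlapped but a lower Cort value in all 3 pairs and a lower peak at Ms4a1 (-0.67 ± 0.10). Of the 5 measured neutrophil markers Elane (1.62), S100a8 (0.63) and Csf3r (0.28) rose and 0 fell, with 3 of 12 peaks higher, and the summed level was 146, 175 and 158 CPM in vehicle and 149.8, 194 and 169.9 CPM with Cort, higher in all 3 pairs with groups that overlapped. Of the osteoclast markers Oscar rose and Dcstamp (-1.39) and Nfatc1 (-1.28) fell, and of the dendritic markers 3 rose and 2 fell. Without the block 0 neutrophil, lymphoid or osteoclast markers rose or fell. There 1 dendritic marker rose and 0 fell, and the fibroblast marker Pdgfrb still rose. The Csf3r call was also lost with DESeq2 and with the 6 libraries alone. Of the markers with an assigned peak the largest change was at Flt3, a receptor of dendritic cell progenitors, from 1.73, 1.64 and 1.36 CPM to 13.5, 8.64 and 14.7 CPM (2.95 ± 0.26), with all 3 of its peaks higher. The part of other cells in the results was not tested, and H3K27ac at a site does not measure how much of a gene is transcribed.

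Cort was set beside the other treatments by direct tests in the same fit. Between Dex and Cort, which differ in dose, 0 of 59881 peaks (0%) passed at an adjusted p under 0.05 in edgeR, with 2293 at an unadjusted p under 0.05, and DESeq2 called 1. The absence of calls does not show that the 2 steroids act alike: at the largest rises the Dex value was above the Cort value by 0.54 ± 0.17 at the site nearest to Trpm3, 0.19 ± 0.11 at Klf9, 0.05 ± 0.10 at Cd163 and 0.93 ± 0.22 at Mctp2. Adjusted p for Dex minus Cort was 0.838 or more at all 24 named rises and falls.

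Between Cort and IL4 24180 peaks (40.4%) differed. The changes of both from vehicle share the vehicle libraries and are given side by side. The Klf9 peak stood at 2.42 with IL4 and 3.85 with Cort, and the Cd163 peak at -1.02 and 3.28. Cort minus IL4 was 1.43 ± 0.12 at Klf9 and 4.30 ± 0.14 at Cd163. At the peak 220 kb from Nfkbiz the change was -4.06 with IL4 and -1.77 with Cort (difference 2.29 ± 0.28), and near Ifng -3.40 and -1.70 (1.69 ± 0.34). The peak 108 kb from Zfp36l1 stood at 0.14 with IL4 and -1.75 with Cort, a difference of -1.89 ± 0.18 (adjusted p = 1.53e-08 in edgeR), and the Sptbn1 peak at -1.62 and -1.71. At Lpl the Cort and IL4 changes were -0.91 and 1.11, and at Fcgr2b 0.77 and 2.27.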

How the data were processed

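Libraries of chromatin immunoprecipitation for H3K27ac and GR from mouse bone marrow-derived macrophages were compared. The deposited values are raw counts of reads in each peak, and all libraries of an antibody share the peaks. The authors made them with fastp, Bowtie2 and SAMtools, then MACS2 and featureCounts, with mm10 as the genome, per the submitters' processing notes. Versions, the merging of peaks and the meaning of a deposited column of TRUE and FALSE values named filtered are not given in the sources used here. Columns headed C were taken as vehicle, since every other column names its treatment. Groups and replicate numbers come from the sample titles.

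Counts were fitted in R 4.3.3 with edgeR 4.0.16: filterByExpr, TMM scaling, which makes changes relative to the other peaks, and quasi-likelihood F tests over all 12 H3K27ac libraries with the replicate number as a block (6 residual degrees of freedom, biological coefficient of variation 0.112). CPM are after TMM scaling, and the SE is the absolute log2 change over the square root of F. Depth in peaks was 6829787 to 15695771 reads in the 6 libraries, and libraries of a group differed beyond sampling noise. Deviations from group means correlated at 0.268 to 0.678 in 18 pairs of libraries with the same number and -0.449 to 0.0406 in 36 others, so numbers were taken as pairs. On simulated counts for this comparison (59881 peaks), 50 of 50 peaks raised and 49 of 50 lowered by 2 on the log2 scale were called, 45 of 50 each way at a change of 1, and 7 of 59681 unchanged ones. The changed peaks were drawn only from those with at least the median mean count, so weaker peaks are not covered. The simulation gave same-numbered libraries an effect in common, so it cannot tell whether the block is right for the real libraries. GR counts were fitted likewise over 15 libraries with batch as a covariate.

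Peaks were assigned to the nearest gene span within 50 kb, among named genes of the RefSeq table of the same assembly. Start sites and sequences are from RefSeq. Peaks are named by this rule: called, at least median abundance, all 3 pairs in the direction of the change, the 12 largest and 12 lowest changes with 1 peak per gene and no predicted genes, the 8 genes with the most higher and most lower peaks, and up to 5 genes per list by smallest p. The members, the 26 gene lists and the rules were chosen with earlier results of these data known. Promoters with the core motif were chosen after their values were seen. DESeq2 1.42.0, other scalings and filters and leaving out libraries were alternatives. The H3K27ac input library was not analysed here. Some genes that the rule names are not reported here.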

Additional observations from a re-analysis of the deposited data

Results flagged for a closer look

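At the GR peak inside the H3K27ac peak named for Ube2s, 1 of the 4 GR vehicle libraries held 6.46 CPM, while the other 3 held 1.11 to 1.42 CPM, and its gap to them took up most of the range of the group. The 4 Cort libraries held 9.003 to 16.7 CPM. The same look was taken at 26 groups of 4 libraries at 13 GR peaks, and chance marks about 1 in 20 groups.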

How the results depend on the processing

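None of the 3858 higher and 3673 lower peaks was called the other way or had the opposite sign in the alternatives run. These changed the block, the scaling, the count filter, the tool, the libraries and the peaks used. They refit the same libraries or a part of them, so the kept direction is not independent support. Fewer calls were kept: 18.2% of the higher and 6.13% of the lower ones without the block, and 44.4% and 28.1% without replicate 3. Without the replicate block the counts were 704 and 225, and with a log2 change of at least 1 they were 1123 and 1122. Leaving out single libraries or whole replicate numbers gave 1755 to 4295 higher and 1052 to 4445 lower peaks. The highest of both came without replicate 2, and the lowest without replicate 1 (1755 higher) and without replicate 3 (1052 lower). Single libraries whose loss moved a count by over 1.5 times were vehicle replicate 3 (2339 and 1516), Cort replicate 1 (2430 and 1915) and Cort replicate 3 (2435 and 1647). DESeq2 with the block called 3163 and 2865, and the 6 libraries alone 3273 and 3317. Scaling set the balance: higher peaks were 51.2% of calls with TMM, 41.3% with total counts (3158 and 4488, all peaks shifted by -0.05 on the log2 scale) and 60.9% with the low-count peaks (4553 and 2928, shifted by 0.06). Dex against Cort had 0 calls with and without the block (2293 and 793 at an unadjusted p under 0.05 in edgeR) and 1 with DESeq2 (1080). Cort against IL4 fell from 24180 to 14942 calls without the block, with 20211 in DESeq2. GR peaks higher with Cort were 662, 1556 with total counts and 475 to 735 on leaving out 1 library. GR peaks lower were 769, 418 without batch, 24 with total counts, 154 with no count filter and 332 to 1107 on leaving out 1 library, lowest without vehicle replicate 4, with 485 without Cort replicate 3. The share of H3K27ac peaks with a GR peak that were higher was 30.3%, 9.71% without the block, 26.6% with total counts and 19.6%, 32.3% and 20.3% without replicates 1, 2 and 3. Of 135 named peaks 118 were called, none of these changed sign under an alternative, and 55 lost the call without the block. Among the uncalled ones Pf4, Cd3d and Cd79a changed sign. The cause of these differences was not tested. Depth limits weak peaks: of the 14971 peaks of lowest abundance (25% of those tested), 161 were higher and 224 lower.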

Other observations

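Chromosome X stood apart from the autosomes in the balance of calls. Of its 1573 tested peaks 62 (3.94%) were higher and 140 (8.90%) lower, with a median log2 change of -0.07, while the autosomes ranged from 5.41% to 7.70% higher and 4.79% to 8.78% lower. Long lower runs on it included 9 of 12 tested peaks at Egfl6, with a median change of -0.999, and Enox2, a gene of the same chromosome named above, had 8 of 16 peaks lower. The chromosome also holds Tsc22d3 and Tlr7, both with higher peaks.

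Other gene families with runs of higher peaks, seen after the data were examined, were Bst1 and Cd38, neighbours that encode enzymes using NAD, with 11 of 16 tested peaks higher, Ms4a20 and Ms4a8a with 12 of 14, the Ly6 cluster with 10 of 18 and the Fcgr2b to Fcgr4 cluster with 14 of 29. Lower runs lay at Psmg1 (10 of 15), at Rap1b and Mdm1 (12 of 27) and from Fcrls to Cd5l (10 of 31). Members of the Ms4a, Ly6 and Fcgr families are alike in sequence and could share reads.

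Among the 26046 peaks marked FALSE in the deposited column named filtered, 615 (2.36%) were higher and 882 (3.39%) lower, against 9.58% and 8.25% of the 33835 marked TRUE. Peaks marked FALSE were short and weak, at a median of 431 bp and 1.26 CPM in vehicle.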
